A study of Homo sapiens with 6 samples.

Results

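The 10 genes described here are transcription factors and effectors of the integrated stress response: ATF4, DDIT3, ATF3, ATF5, TRIB3, CHAC1, CEBPB, CEBPG, SESN2 and PPP1R15A. They were taken by name from a table of 39168 genes with an Ensembl identifier. All 10 were among the 12821 genes with enough reads to test. The libraries came from CAL62, an established anaplastic thyroid carcinoma cell line that the labels give as wild type. One group of 3 libraries was treated with 50 nM erianin, a bibenzyl compound of Dendrobium orchids, for 48 h, and the other group of 3 received the vehicle DMSO for the same time. A single line, dose and time were sampled, so an earlier or passing response was not measured.

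The integrated stress response begins when one of several kinases, each tuned to its own stress such as misfolded protein in the endoplasmic reticulum (ER) or lack of amino acids, phosphorylates the alpha subunit of the initiation factor eIF2. General translation then slows, while a small set of mRNAs with short upstream reading frames, that of ATF4 foremost among them, is translated more. ATF4 pairs with other basic leucine zipper (bZIP) proteins and switches on genes for amino acid supply, redox balance and, through DDIT3 (also called CHOP), cell death, and PPP1R15A (also called GADD34) returns eIF2 to its unphosphorylated state. Much of the pathway therefore acts through phosphorylation and translation, neither of which was measured here.

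Promoter sequences from RefSeq (GRCh38.p14, 1 start site per gene) were matched for all 10 genes, and the 250 bases before each start were searched on both strands. The 4 stretches that follow are shown because they hold a motif of this pathway or of the related ER stress response in a gene described below. Capitals mark the motif, and only bases outside annotated exons were kept, except for CHAC1, where 30 bases around the motif are given. The motif is the core of the C/EBP-ATF response element, TGATGNAA, in ATF3 and, on the opposite strand, in CHAC1. In PPP1R15A it is the cyclic AMP response element, TGACGTCA. In DDIT3 it is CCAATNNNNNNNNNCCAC, the ER stress element without its last base, which was searched for after the DDIT3 sequence had been seen.
DDIT3, chr12:57520518-57520764, - strand: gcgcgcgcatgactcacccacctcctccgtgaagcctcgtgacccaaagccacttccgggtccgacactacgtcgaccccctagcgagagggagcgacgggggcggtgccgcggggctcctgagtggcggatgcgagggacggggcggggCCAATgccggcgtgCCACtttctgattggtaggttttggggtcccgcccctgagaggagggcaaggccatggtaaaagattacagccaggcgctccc
ATF3, chr1:212565157-212565333, + strand: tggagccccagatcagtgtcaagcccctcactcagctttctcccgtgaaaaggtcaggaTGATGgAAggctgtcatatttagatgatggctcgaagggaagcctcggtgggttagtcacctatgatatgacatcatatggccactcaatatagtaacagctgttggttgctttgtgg
PPP1R15A, chr19:48872171-48872391, + strand: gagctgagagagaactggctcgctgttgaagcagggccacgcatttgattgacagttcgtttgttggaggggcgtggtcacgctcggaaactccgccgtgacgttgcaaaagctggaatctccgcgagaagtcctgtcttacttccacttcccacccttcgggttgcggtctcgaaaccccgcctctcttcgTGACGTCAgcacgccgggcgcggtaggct
CHAC1, chr15:40953251-40953280, + strand: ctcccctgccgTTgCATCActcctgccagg

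The ATF3 and PPP1R15A stretches end at the first base before the GENCODE 29 gene, the DDIT3 stretch lies in an intron of 1 longer annotated transcript, and the CHAC1 window lies within an annotated exon. The C/EBP-ATF core was present in 2 of the 10 members against 3.14% of 35116 promoters, and the cyclic AMP response element in 1 member against 1.65%. The ER stress element in full, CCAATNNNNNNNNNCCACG, was in none of the 10 and in 0.0740% of all promoters, and the form found in DDIT3 was in 0.282%. These are matches of letters near 1 start site per gene, and binding was not measured.

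The libraries held 25776301 to 34107727 reads on named genes. DMSO replicate 3 stood apart: its distance to the other DMSO libraries over all tested genes was 62.9 and 64.1, against 37.2 between those 2 and 28.2, 28.9 and 29.01 among the erianin libraries (Euclidean distance of log2 CPM). DMSO replicates 1 and 2 lay 58.5 to 62.3 from the erianin libraries, so DMSO replicate 3 was at least as far from its own group. From the erianin libraries DMSO replicate 3 lay further still, at 68.3, 68.9 and 69.3. DMSO replicate 3 had the lowest DMSO value of DDIT3, ATF3, ATF5, TRIB3, CHAC1, CEBPB and SESN2 and the highest of ATF4 and PPP1R15A. Leaving it out brought the biological coefficient of variation from 0.139 down to 0.0421, so the log2 fold changes of the members and of the called list genes below are also given without this library. The library was singled out from these same data, and the lower variation by itself makes adjusted p values without it smaller. The thyroid factor PAX8 was high in all libraries (419 to 739 CPM), as were KRT8, VIM and FN1, while TG stayed under 0.4 CPM, TSHR and NKX2-1 were listed at 0, and 4 of 5 blood or endothelial markers stayed under 0.3 CPM. The remaining blood marker, CD14, had 1.80 to 4.33 CPM, and the epithelial marker CDH1 stayed under 0.3 CPM. PAX8 and FN1 fell with erianin (log2 fold changes -0.66 and -0.80), and any part of this in the results below was not tested.

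The response was split among the members. DDIT3 and ATF3, both stress-induced bZIP factors, rose 2.39-fold and 3.51-fold with erianin, and CHAC1, which degrades glutathione, fell by 34.2%. The mRNA of ATF4, the factor that the pathway is built on, stood 20.8% lower rather than higher, with a fold change under the threshold. The 6 others, ATF5, TRIB3, CEBPB, CEBPG, SESN2 and PPP1R15A, were not called. A gene was called when the Benjamini-Hochberg adjusted p of edgeR's quasi-likelihood test was under 0.05 and the log2 fold change was over 0.5 in size. By this rule 2 members were higher and 1 was lower, where 8.73% of all 12821 tested genes were called, 5.37% higher and 3.36% lower. The split over all genes, 688 higher and 431 lower, became 822 and 299 with upper-quartile scaling and 667 and 687 after a GC correction. These 2 fits moved the median of all tested genes to 0.05 and -0.07, and the members' 2 and 1 stayed in number under both. The values of 3 members did not overlap between groups and were higher with erianin, against 19.5% of all tested genes, and those of 2 did not overlap and were lower, against 19.3%. The median log2 fold change was 0.03 over the members and 0.00 over all tested genes (-0.10 and 0.02 without DMSO replicate 3), and erianin minus DMSO is the direction throughout.

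**Figure D1:**
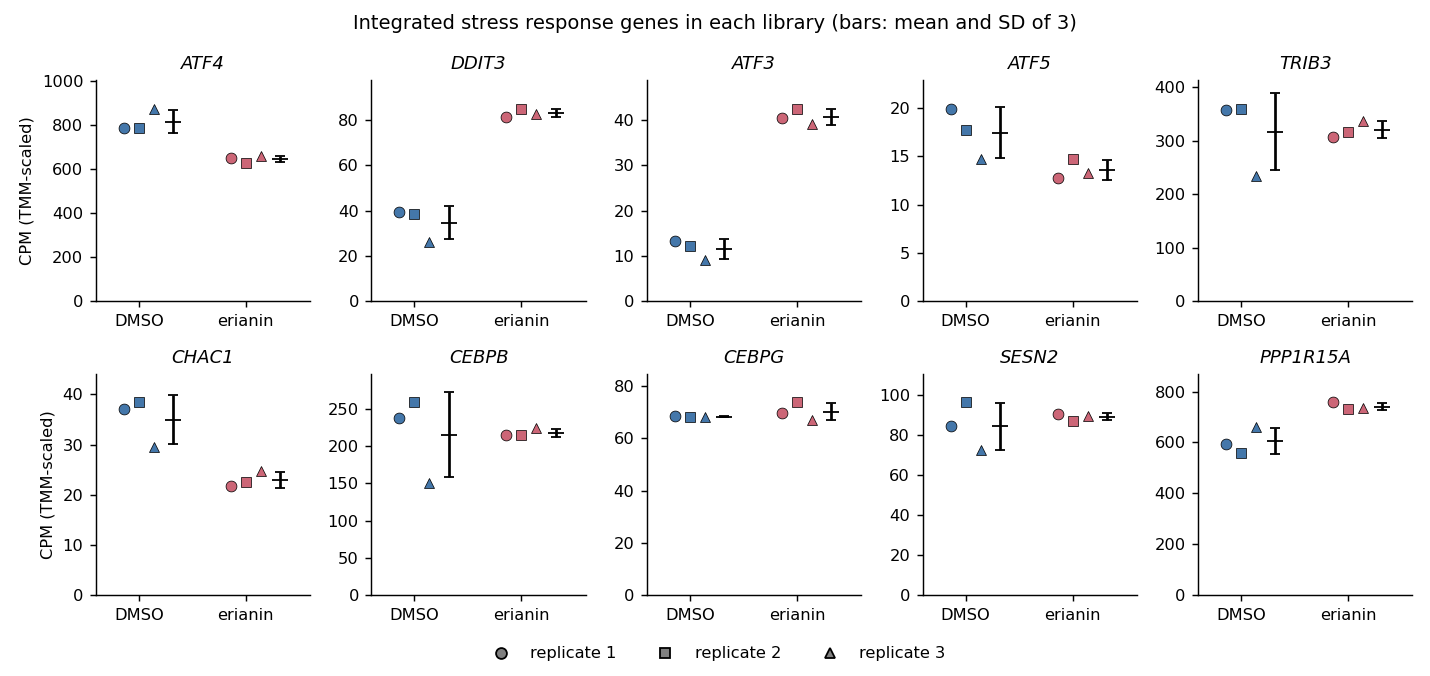
CPM (counts per 1000000 reads after TMM scaling, y axis from 0) of each member in the 3 DMSO and 3 erianin libraries, with marker shapes for replicates and black bars for the mean and SD. DDIT3 and ATF3 separate widely upward, CHAC1 and ATF4 separate downward, and DMSO replicate 3 (blue triangle) sets most of the DMSO spread in TRIB3 and CEBPB.

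ATF4 (ENSG00000128272, chr22:39519695-39522685 in GRCh38) is the central activator of the response. Its CPM (counts per 1000000 reads, TMM-scaled) was 788, 785 and 874 in the DMSO libraries and 651, 628 and 658 in the erianin libraries. Every erianin value lay under every DMSO value. The log2 fold change was -0.34 (SE 0.07, 95% interval -0.51 to -0.17; edgeR adjusted p = 0.0233). Without DMSO replicate 3 it was -0.29 (edgeR adjusted p = 1.55e-07), and over the 6 fits that each left out 1 library the adjusted p reached 0.120. CPM is a share of the reads from many cells. Less ATF4 RNA per cell, fewer cells expressing ATF4 and more RNA of other genes cannot be told apart here. The genes whose pattern over the 6 libraries was most like that of ATF4, among 9617 candidates, were ESYT2, CTSZ and IPO9, with root-mean-square differences of 0.0259, 0.0264 and 0.0274 in centred log2 CPM.

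DDIT3 (ENSG00000175197, chr12:57516588-57521737) is a bZIP factor tied to cell death in prolonged ER stress, and its promoter stretch is printed above. Its CPM was 39.3, 38.5 and 26.2 with DMSO and 81.4, 84.9 and 82.4 with erianin. The lowest erianin value was more than double the highest DMSO value. DDIT3 rose by a log2 fold change of 1.26 (SE 0.15, 95% interval 0.90 to 1.62; edgeR adjusted p = 0.00410), and without DMSO replicate 3 the value was 1.09 (edgeR adjusted p = 6.82e-17). Over the fits that each left out 1 library, its edgeR adjusted p reached 0.0360. The gene shares 1028 bases with MBD6 and 982 with MARS on the other strand, and 2769 with AC022506.1 on the same strand. The strand setting of the counts is not given in the sources used here. MARS was listed at 0 in every library and AC022506.1 had no counts listed, so reads from these 2 genes could not be assessed. MBD6 had 55.1, 56.3 and 77.2 CPM with DMSO and 57.8, 57.4 and 61.1 CPM with erianin and was not called (log2 fold change -0.10; edgeR adjusted p = 0.682).

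ATF3 (ENSG00000162772, chr1:212565334-212620777), a bZIP factor induced early in many stresses and by MAP kinase signalling, had the smallest adjusted p of the members. In DMSO its CPM was 13.3, 12.3 and 9.12, and in erianin it was 40.3, 42.4 and 39.1. The groups lay far apart, with a narrow spread among the erianin libraries. ATF3 rose by 1.82 on the log2 scale (SE 0.15, 95% interval 1.47 to 2.16; edgeR adjusted p = 0.00105), and by 1.67 without DMSO replicate 3 (edgeR adjusted p = 7.90e-18). Over the fits that each left out 1 library, its edgeR adjusted p reached 0.0165. By log2 fold change ATF3 ranked 125th and DDIT3 310th from the top among all tested genes. The genes most like ATF3 over the 6 libraries were SBSN, ADM, which codes for the secreted peptide adrenomedullin, and DUSP1, a phosphatase of MAP kinases. Their root-mean-square differences were 0.118, 0.124 and 0.149, and their log2 fold changes were 1.82, 2.03 and 1.55.

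**Figure D2:**
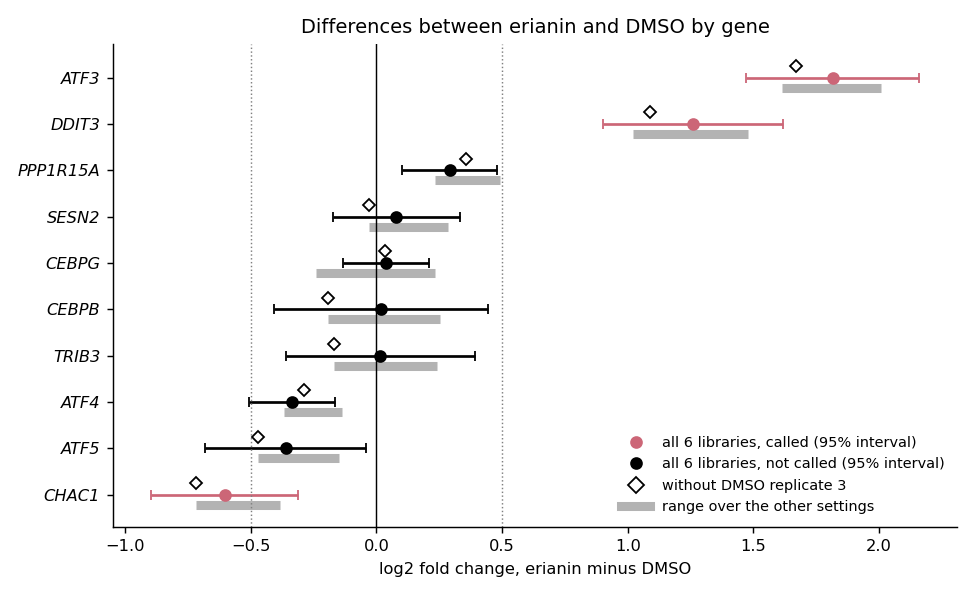
Log2 fold change (erianin minus DMSO) of each member from edgeR with its 95% interval, red where called, with open diamonds for the fit without DMSO replicate 3, grey bars for the range over 19 other fits and dotted lines at the 0.5 threshold. Only ATF3 and DDIT3 stay beyond the threshold across the whole range, between 1.61 and 2.01 and between 1.02 and 1.48, and the bars of TRIB3, CEBPB, CEBPG and SESN2 cross 0.

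Among the other bZIP members, ATF5 (ENSG00000169136, chr19:49928702-49933935), a relative of ATF4 linked to the mitochondrial stress response, had 19.9, 17.7 and 14.7 CPM with DMSO and 12.7, 14.7 and 13.3 CPM with erianin. The groups met at DMSO replicate 3 and erianin replicate 2. Its log2 fold change was -0.36 (SE 0.14; edgeR adjusted p = 0.122), and -0.47 without DMSO replicate 3 (edgeR adjusted p = 6.29e-05), which remained under the fold threshold. ATF5 shares 1062 bases with NUP62 on the other strand, which was not called either (log2 fold change -0.13). It also shares 5234 bases with AC011452.1 and 838 with IL4I1 on that strand, and AC011452.1 had no counts listed.

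CEBPB (ENSG00000172216, chr20:50190734-50192689), a C/EBP factor that dimerizes with ATF4, had 237, 259 and 151 CPM with DMSO and 215, 216 and 224 CPM with erianin. The erianin values fell between DMSO replicate 3 and the other 2 DMSO libraries. The log2 fold change of CEBPB was 0.02 with all libraries (SE 0.18, 95% interval -0.41 to 0.44; edgeR adjusted p = 0.963) and -0.19 without DMSO replicate 3 (edgeR adjusted p = 0.000370). CEBPG (ENSG00000153879, chr19:33373330-33382686), a short C/EBP protein and partner of ATF4, was the steadiest member in the DMSO libraries. Its CPM was 68.7, 68.1 and 68.3 with DMSO and 69.7, 73.8 and 67.2 with erianin, so the groups overlapped. Its log2 fold change was 0.04 (SE 0.07, 95% interval -0.13 to 0.21; edgeR adjusted p = 0.778) and 0.03 without DMSO replicate 3. It turned to -0.13 when each library's trend with GC content was removed, a fit that moved the median of all tested genes to -0.07.

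PPP1R15A (ENSG00000087074, chr19:48872392-48876057) codes for the stress-induced subunit that directs protein phosphatase 1 to eIF2 and so closes the feedback loop. Its CPM was 593, 560 and 663 with DMSO and 757, 730 and 736 with erianin. All erianin values were above all DMSO values, by a modest margin. The log2 fold change was 0.29 (SE 0.08, 95% interval 0.10 to 0.48; edgeR adjusted p = 0.0514), so PPP1R15A missed both thresholds. Without DMSO replicate 3 it was 0.36 (edgeR adjusted p = 5.36e-09), again under the fold threshold.

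CHAC1 (ENSG00000128965, chr15:40952962-40956519), a glutathione-degrading enzyme widely used as a readout of ATF4 activity, went the other way from DDIT3 and ATF3. In the DMSO libraries its CPM was 37.1, 38.4 and 29.5, and in the erianin libraries it was 21.7, 22.5 and 24.8. The groups did not overlap, and DMSO replicate 3 lay nearest to the erianin libraries. CHAC1 fell by 0.60 on the log2 scale (SE 0.13, 95% interval -0.90 to -0.31; edgeR adjusted p = 0.0203). Its value without DMSO replicate 3 was -0.72 (edgeR adjusted p = 5.10e-10). The call was lost when any 1 of the other 5 libraries was left out, with edgeR adjusted p values up to 0.1002 and log2 fold changes of -0.66 to -0.53.

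TRIB3 (ENSG00000101255, chr20:362835-397559) is a pseudokinase that ATF4 and DDIT3 induce and that restrains both ATF4 and Akt. It had 358, 360 and 233 CPM with DMSO and 307, 317 and 338 CPM with erianin. As for CEBPB, the erianin libraries fell between DMSO replicate 3 and the other DMSO libraries. The log2 fold change of TRIB3 was 0.02 (SE 0.16, 95% interval -0.36 to 0.39; edgeR adjusted p = 0.963), and -0.17 without DMSO replicate 3 (edgeR adjusted p = 0.00108). The value was -0.02 without erianin replicate 3, so its sign was not settled.

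SESN2 (ENSG00000130766, chr1:28259527-28282491), a leucine sensor that restrains mTORC1, had 84.1, 96.1 and 72.3 CPM with DMSO and 90.2, 87.0 and 89.6 CPM with erianin. The DMSO values enclosed all erianin values. Its log2 fold change was 0.08 (SE 0.11, 95% interval -0.17 to 0.33; edgeR adjusted p = 0.676), and -0.03 without DMSO replicate 3 (edgeR adjusted p = 0.683). For TRIB3, CEBPB, CEBPG and SESN2 the intervals leave out a log2 fold change of 0.5 in either direction. This bounds the difference given the spread between these libraries, and does not show that the groups were alike.

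Levels of different genes were compared per length, as TPM (transcripts per 1000000 transcripts). In DMSO the order of the mean TPM was ATF4 (896), PPP1R15A (866), CEBPB (655), TRIB3 (315), SESN2 (144), CEBPG (50.6), DDIT3 (38.2), CHAC1 (29.7), ATF5 (17.4) and ATF3 (5.04). The ranges of ATF4 and PPP1R15A overlapped, as did those of DDIT3 and CHAC1, and the other neighbours were separate. In erianin the order was PPP1R15A (1219), ATF4 (815), CEBPB (753), TRIB3 (362), SESN2 (174), DDIT3 (104), CEBPG (59.6), CHAC1 (22.3), ATF3 (20.2) and ATF5 (15.4), and only ATF4 and CEBPB overlapped. DDIT3 thus passed CEBPG, and ATF3 passed ATF5, yet both remained far under ATF4. TPM columns of this table sum to 59.1% of 1000000 in DMSO replicate 3 and to 72.6% to 78.3% in the others, so levels were compared within a group only.

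Ratios of TPM within a library do not depend on that sum. DDIT3 was 4.96%, 4.88% and 2.98% of ATF4 in the DMSO libraries and 12.4%, 13.4% and 12.5% in the erianin libraries. ATF3 went from 0.563% ± 0.134 to 2.48% ± 0.164 of ATF4 (mean ± SD, n = 3 per group). CHAC1 was 73.0%, 77.1% and 86.8% of DDIT3 with DMSO and 20.6%, 20.5% and 23.2% with erianin. The groups did not overlap in any of these ratios. PPP1R15A was 96.7% ± 3.18 of ATF4 with DMSO and 150% ± 3.34 with erianin. The DMSO means without replicate 3 were 4.92% for DDIT3 and 0.639% for ATF3 against ATF4, 75.0% for CHAC1 against DDIT3 and 95.6% for PPP1R15A against ATF4. Of the 8 ratios computed, 6 reached an exact two-sided permutation p of 0.1 (Benjamini-Hochberg adjusted 0.133), the smallest that 3 against 3 libraries allow. By the same permutation test CEBPB against ATF4 and CHAC1 against ATF4 gave 0.2 and 0.3 (adjusted 0.229 and 0.3). CHAC1 was 3.62%, 3.76% and 2.59% of ATF4 with DMSO and 2.57%, 2.76% and 2.90% with erianin, so these groups overlapped.

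**Figure D3:**
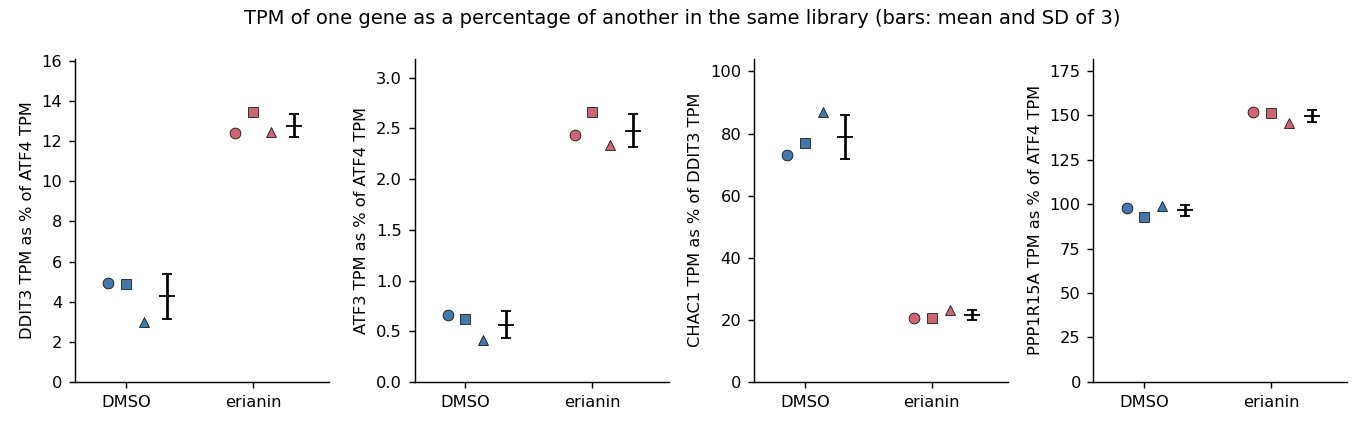
TPM of 1 member as a percentage of another in the same library (y axes from 0), for the 3 DMSO and 3 erianin libraries, with black bars for the mean and SD. DDIT3, ATF3 and PPP1R15A are higher relative to ATF4 in every erianin library, and CHAC1 drops from a mean of 79.0% to 21.5% of DDIT3. DDIT3 itself rose, and CHAC1 against ATF4, where the groups overlapped, is not drawn.

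The genes around the members were divided into 6 lists of 103 genes, of which 81 were tested. The lists were chosen with earlier results of these data known, so their counts beside the shares of all genes are descriptive. Of the kinases, eIF2 and eIF2B subunits and phosphatase regulators, 16 of 17 were tested and 1 rose, a share near the 5.37% of all tested genes called higher. This was EIF2AK3 (PERK), the kinase of the ER membrane, with 10.8, 10.6 and 13.3 CPM in DMSO and 15.7, 16.8 and 17.5 CPM in erianin (log2 fold change 0.53; edgeR adjusted p = 0.0300). Its call was lost when any library other than DMSO replicate 3 was left out, and without that library EIF2AK3 (0.63) and DNAJC3 (0.58) were called. The most abundant genes of the list were the eIF2 subunits EIF2S2 (0.08) and EIF2S3 (-0.35), neither called. The list median was -0.05 (0.03 without DMSO replicate 3), and DELE1, a mitochondrial relay to the pathway, was listed at 0 in every library.

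Other bZIP partners and repressors gave 1 lower call among 15, JDP2, a repressor that binds the same sites as ATF3 and AP-1. JDP2 had 52.3, 50.0 and 53.8 CPM with DMSO and 36.4, 34.4 and 34.8 CPM with erianin (log2 fold change -0.56; edgeR adjusted p = 0.00629), with no overlap, and -0.54 without DMSO replicate 3. The call was lost without erianin replicate 2 and without erianin replicate 3. The single lower call stands beside 3.36% of all tested genes. The list median was -0.10 (-0.04 without DMSO replicate 3), and the abundant ATF6B (-0.33) and XBP1 (0.11) were not called. Without DMSO replicate 3, CEBPA (-0.63) was also called lower, and NFE2L2 (0.66) and BACH1 (0.54) were called higher.

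Genes of amino acid synthesis and transport, the classical targets of ATF4, lay mostly below their DMSO level. Of 18, 0 were called higher and 5 were called lower, against 5.37% and 3.36% of all tested genes. Of the 18, 14 had a negative log2 fold change, and the median was -0.34, against 0.00 over all tested genes. The fallen genes were SLC6A9 (-0.82), a glycine transporter, SLC1A4 (-0.75), a serine and alanine transporter, CBS (-0.71) of the transsulfuration pathway, SHMT2 (-0.65) of mitochondrial one-carbon metabolism and PSAT1 (-0.53) of serine synthesis, the last of which is named beyond the rule because it completes the count. SHMT2 showed 899, 858 and 758 CPM with DMSO and 540, 525 and 542 CPM with erianin (edgeR adjusted p = 0.00463). SLC1A4 showed 56.0, 62.0 and 60.0 CPM against 35.7, 34.8 and 35.3 CPM (edgeR adjusted p = 0.00273). Both sets of values were well separated. Leaving out DMSO replicate 3 gave log2 fold changes of -0.77 for SLC6A9, -0.75 for SLC1A4, -0.82 for CBS, -0.72 for SHMT2 and -0.69 for PSAT1, all called, and the list median was -0.39. SLC7A5 (-0.34) and PHGDH (-0.47) were abundant and not called, although PHGDH was called lower without DMSO replicate 3 (-0.67). The number called lower was 6 without DMSO replicate 3, 3 without DMSO replicate 1, DMSO replicate 2 or erianin replicate 2, and 2 without erianin replicate 1 or erianin replicate 3.

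Other stress-output targets of ATF4 and DDIT3 showed the opposite lean. Of 15 tested, 4 rose and 0 fell, against 5.37% and 3.36% of all tested genes. Of the 15, 14 had a positive log2 fold change, and the median was 0.34. HERPUD1, an ER-associated degradation factor, rose most, from 76.3, 79.1 and 75.3 CPM to 182, 197 and 190 CPM (log2 fold change 1.30; edgeR adjusted p = 0.000219). GDF15, a secreted stress cytokine, rose by 1.03 but from a level under 1 CPM, and the autophagy genes SQSTM1 (0.56) and MAP1LC3B (0.50) completed the count. The abundant EIF4EBP1 (-0.39) and the death receptor gene TNFRSF10B (0.07) were not called. Without DMSO replicate 3 the log2 fold changes were 1.28 for HERPUD1, 0.85 for GDF15 and 0.50 for MAP1LC3B, while SQSTM1 (0.46) was no longer called and VLDLR (0.50), KLHL24 (0.50) and ATG5 (0.55) were, which made 6 calls, and the list median was 0.39. The number called was 2 without DMSO replicate 2, erianin replicate 1 or erianin replicate 3, and 1 without erianin replicate 2.

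The ATF6 and XBP1 branch of the ER stress response, set beside the pathway for comparison, had all 16 genes positive and a median of 0.27. Of the 16, 2 were called higher, against 5.37% of all tested genes. HSPA5 (BiP), the main ER chaperone, rose from 978, 979 and 1029.6 CPM to 3195, 3423 and 3313 CPM, a log2 fold change of 1.73 (edgeR adjusted p = 0.000129). DNAJB9 rose by 0.67, and HSP90B1 (0.53) and CALR (0.21) were not called. Without DMSO replicate 3, HSPA5 (1.75) and DNAJB9 (0.71) kept their calls, HSP90B1 (0.75) was called as well, and the list median was 0.33. A single call (1 gene) was left without erianin replicate 1, erianin replicate 2 or erianin replicate 3. The full ER stress element was found in the promoters of 5 of these 16 genes (HSPA5, HSP90B1, CALR, CANX and CRELD2). Motifs did not divide the lists cleanly. XBP1 also held the full element, and HERPUD1 held the form found in DDIT3 together with the C/EBP-ATF core. That core was in 1 of 14 matched amino acid genes (ASNS) and in 2 of 14 matched stress-output genes (FGF21 and HERPUD1).

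**Figure D4:**
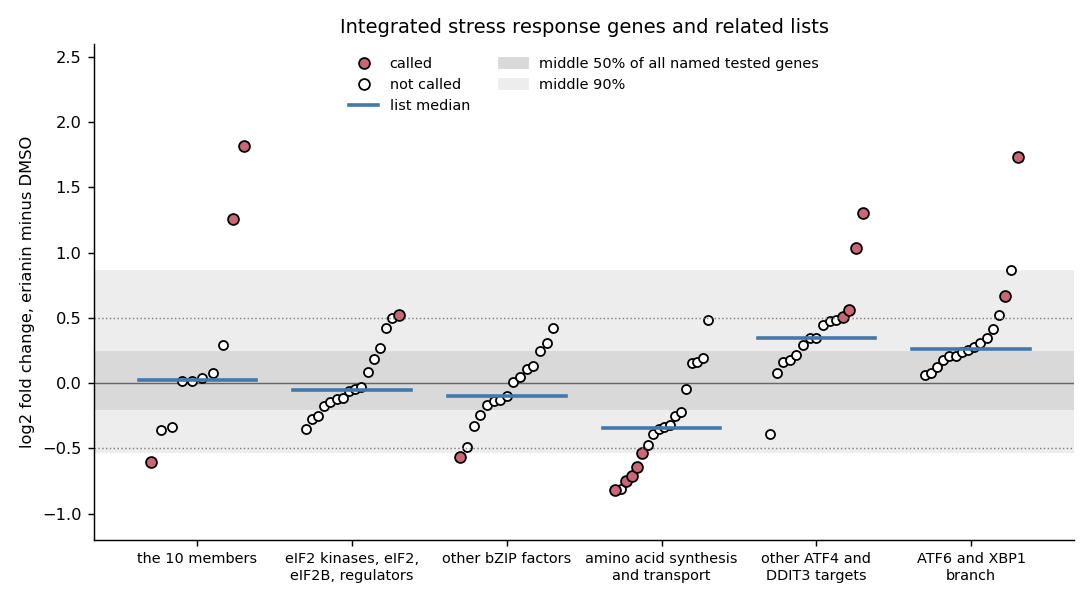
Log2 fold change (erianin minus DMSO) of each tested gene of the members and of 5 related lists, red where called, with blue lines for list medians, grey bands for the middle 50% and 90% of all tested genes and dotted lines at the 0.5 threshold. Amino acid genes lie mostly below 0 (median -0.34), while the other ATF4 and DDIT3 targets (0.34) and the ATF6 and XBP1 branch (0.27) lie mostly above 0.

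The cytosolic aminoacyl-tRNA synthetases could not be assessed: 18 of the 19 genes of that list were listed at 0 in every library, as were ATP5F1A, H2AZ1 and SEPTIN2, which every cell uses. The exception, the tRNA export factor XPOT, was not called (-0.10).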

How the data were processed

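RNA of CAL62 cells was sequenced on the BGISEQ-500 in 6 libraries, 3 per group. Raw counts of reads per gene and TPM values were deposited by the authors, in which TPM is a share of the library per transcript length. The submitters' processing notes name fastp 0.23.2, STAR 2.7.10, featureCounts 2.0.1 and StringTie 2.2.1 and the builds GRCh38 and hg38. The annotation and strand setting are not given in the sources used here. Separate cultures are not stated beyond replicate experiments, so p-values measure the spread between these libraries, which may be technical. Of 65807 rows, 26480 had no identifier. They held 0.00385% to 0.00515% of reads and were left out, and of rows sharing an identifier the one with the most counts was kept. Positions are from GENCODE 29. Library depth was 25776301 to 34107727 reads on named genes.

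Counts were tested with edgeR 4.0.16 (filterByExpr, TMM, quasi-likelihood, two-sided) over 12821 genes. Calls required an adjusted p under 0.05 and a log2 fold change above 0.5 in size. Alternatives used DESeq2 1.42.0, limma 3.58.1 on log2(TPM + 1), other scalings and filters, a GC offset, a replicate block and left-out libraries. The scripts were tested on simulated data. The members and lists were chosen with earlier results of these data known. Named from each list were the called genes with the 4 largest changes and, beyond these, the 2 most abundant. Likeness was the root-mean-square difference of centred log2 CPM over genes with a mean of at least 5 CPM. Identity lists covered thyroid, epithelial, mesenchymal, and blood or endothelial markers.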

Additional observations from a re-analysis of the deposited data

How the results depend on the processing

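DDIT3 and ATF3 were called higher under all 21 alternatives, and no other member was called higher under any. Unless stated, the cause of a change was not tested. Leaving out 1 library gave 172 to 1485 genes higher and 126 to 797 lower (688 and 431 with all 6), 0 to 1 members lower, and for the lists 0 to 2 eIF2 genes, 0 to 2 bZIP genes, 1 to 6 stress-output genes and 1 to 3 ATF6 and XBP1 genes higher, with 0 to 2 bZIP genes and 2 to 6 amino acid genes lower. Fewer libraries also leave fewer degrees of freedom. The highest counts came without DMSO replicate 3. Over these 6 fits the log2 fold changes ranged from -0.17 to 0.11 for TRIB3, -0.19 to 0.17 for CEBPB, -0.00053 to 0.068 for CEBPG and -0.027 to 0.18 for SESN2, so that their signs are not settled.

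Limma on log2(TPM + 1), log2(TPM + 0.1) and unfiltered TPM moved the median of all genes to 0.18, 0.20 and 0.12, so calls counted from 0 leaned higher there: 1098, 1207 and 1057 genes higher and 94, 110 and 88 lower. In the same order these gave 0 members lower in each, 3 eIF2 genes higher in each, 1 bZIP gene higher and 0 lower in each, 7 stress-output genes higher in each, 5, 6 and 5 ATF6 and XBP1 genes higher, and 1, 2 and 1 amino acid genes lower. After each TPM column was rescaled to 1000000, a choice made after seeing the data, 487 genes were higher, 264 were lower and 0 eIF2 genes were higher. Upper-quartile scaling and a minimum of 10 counts each gave 2 eIF2 genes higher, with a split of 822 and 299 genes for the former, and no low-count filter gave 2 stress-output genes higher and -0.0018 for TRIB3.

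With no fold threshold, which by construction adds calls, 926 genes were higher and 986 lower, so the lean to higher calls was lost. There, 2 members (ATF4 and CHAC1), 1 eIF2, 2 bZIP, 8 amino acid and 1 stress-output gene were lower, and 3 eIF2, 1 bZIP, 7 stress-output and 4 ATF6 and XBP1 genes were higher. At a log2 fold change over 1 there were 324 genes higher and 28 lower, with 0 members, 0 bZIP and 0 amino acid genes lower and 0 eIF2, 2 stress-output and 1 ATF6 and XBP1 gene higher. The GC offset moved the median of all tested genes to -0.07. It gave 667 genes higher, 687 lower, 0 eIF2 genes higher, 1 lower, and -0.13 for CEBPG. With DMSO replicate 3 also left out, a choice made after seeing the data, 888 were higher, 815 lower, 0 eIF2 genes higher and 2 lower, 0 bZIP genes lower, and TRIB3, CEBPB and CEBPG stood at -0.076, -0.052 and -0.24.

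No sign of pairing by replicate number was seen, which 3 libraries per group cannot exclude. The deviations of same-numbered libraries from their group means correlated at 0.00138, 0.0253 and -0.0329, and not every library correlated best with its own number. A fit with the replicate block gave 384 genes higher and 281 lower, 0 members lower (CHAC1, edgeR adjusted p = 0.0651) and 0 eIF2 genes higher. With the block and the GC offset together, 560 genes were higher and 618 lower, 0 eIF2 genes were higher, 1 was lower, and CEBPG stood at -0.13. No other call of a member changed under the block.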

Other observations

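Upstream ATG triplets, a feature of mRNAs whose translation is regulated in this pathway, were counted in the leaders of principal GENCODE 29 transcripts, which were matched for 8 of the 10 members (not TRIB3 and CHAC1). At least 1 was present in 7 of the 8, CEBPB being the exception, and in 53.3% of 13651 genes. The leaders of the 8 ran from 209 (DDIT3) to 882 bases (ATF4), against a median of 190 over all these genes. A longer leader has more room for an ATG triplet, and the shares were not matched for length. Translation was not measured.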
